A study of Homo sapiens with 26 samples.

Results

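Promoters of the cytosolic ribosomal protein genes were examined in HCT116, a human colon carcinoma cell line with functional p53, after p53 activation with Nutlin-3a. The 91 genes were the protein-coding genes of the GRCh37 annotation with a symbol of RPL or RPS followed by a digit, together with RPLP0, RPLP1, RPLP2 and RPSA and without the RPS6K kinases, out of 20176 protein-coding genes. They comprised 46 genes of the large subunit, 31 genes of the small subunit, 10 paralogues, 3 readthrough genes and RPS19BP1, which encodes a protein that binds RPS19 and is not a ribosomal protein itself. A promoter was taken as the 1000 bp before and the first 200 bp after the annotated start. The values came from 16 peak lists of chromatin immunoprecipitation followed by sequencing (ChIP-seq), 10 of H3K27ac, an acetylation of histone H3 found at active promoters and enhancers, and 6 of H3K4me1, a methylation of histone H3 found at enhancers and beside active promoters.

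Wild-type cells (WT) were given DMSO (Nut 0 h) or Nutlin-3a for 1 h (Nut 1 h) or 10 h (Nut 10 h), and both marks were mapped. The line HCT116_RAD21 was given DMSO or Nutlin-3a for 1 h, and H3K27ac alone was mapped. By the study's methods, all alleles of RAD21, a subunit of the cohesin ring that holds chromatin loops, carry an auxin-inducible degron in this line, and the protein was degraded with 5-Ph-IAA before Nutlin-3a was added. The labels give the line and not the degradation, so these samples are called the RAD21 line. Each of the 5 H3K27ac groups and 3 H3K4me1 groups held 2 biological replicates, and 2 lists against 2 cannot reach an exact two-sided permutation p below 0.333. The colon epithelial genes EPCAM, KRT8, KRT18, CDH1 and KRT19 had an H3K27ac promoter peak in 10 of 10 lists and LGALS4 in 0, and the annotated leukocyte, fibroblast and endothelial markers also had a peak in 0 lists.

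The H3K27ac lists fell into 2 forms by their peak names. The peak names of both WT 0 h lists and of WT 1 h replicate 1 lack the word input, these lists covered 30.7 to 31.9 Mb, and they held 3 or 4 mitochondrial peaks each. The other 7 lists have the word in their peak names, covered 49.1 to 66.6 Mb and held 0 mitochondrial peaks. Whether the first 3 lists were called with an input control or in another run is not given in the sources used here, and their p, fold and width values may not be on the same footing as those of the other 7. The lists hold no read counts, so the depth of each library is unknown. The form of the list cannot be told apart from time in WT 10 h against 0 h, nor from the line in the RAD21 line against WT at 0 h. Only in WT 1 h do the lists of a group differ in form. A term for form, added to some fits below, therefore rests on this pair of lists and takes up any other difference between its replicates. It cannot separate form from time or line in these comparisons. Lists of 1 form can be compared in RAD21 1 h against 0 h, in WT 1 h replicate 1 against WT 0 h, in WT 10 h against WT 1 h replicate 2 and between some groups across lines, and these values stand beside the pooled ones.

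Each ribosome needs 1 copy of nearly every ribosomal protein, and the genes that encode them are transcribed at a high rate in dividing cells. Their transcripts typically begin with a C followed by a run of pyrimidines, the 5′ terminal oligopyrimidine (5′ TOP) tract, through which mTOR signalling sets their translation. Nutlin-3a blocks the binding of p53 by HDM2, the ubiquitin ligase that targets p53 for destruction. Several ribosomal proteins, with RPL5 and RPL11 the best known, bind HDM2 when ribosome assembly is disturbed and thereby stabilise p53. RPS27L, a paralogue of RPS27, is itself a p53-induced gene.

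The start sites of members named below are shown because their first transcribed bases are the feature that most of them share and that the choice of genes did not use. The sequences are from RefSeq on GRCh38.p14, run from 45 bases before to 15 bases after the start and are written in the direction of transcription. Capitals mark an unbroken run of pyrimidines that begins with C at the first transcribed base, and the letters CCGGAAG, a core that ETS-family factors bind.
RPL11, chr1:23691761-23691820, + strand: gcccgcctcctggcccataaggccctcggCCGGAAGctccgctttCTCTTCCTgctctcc
RPL26, chr17:8383179-8383238, - strand: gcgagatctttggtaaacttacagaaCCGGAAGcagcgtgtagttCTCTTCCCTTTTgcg
RPS27A, chr2:55232643-55232702, + strand: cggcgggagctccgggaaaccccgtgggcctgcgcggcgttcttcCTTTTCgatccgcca
RPS27L, chr15:63157463-63157522, - strand: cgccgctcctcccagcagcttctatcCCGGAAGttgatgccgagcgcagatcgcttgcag
RPS19, chr19:41860210-41860269, + strand: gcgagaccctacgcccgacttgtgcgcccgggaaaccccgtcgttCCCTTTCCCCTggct
RPLP0, chr12:120201097-120201156, - strand: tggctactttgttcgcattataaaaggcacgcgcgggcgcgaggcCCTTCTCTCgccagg
RPSA, chr3:39406675-39406734, + strand: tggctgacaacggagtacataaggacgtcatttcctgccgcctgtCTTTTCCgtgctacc
RPL14, chr3:40457294-40457353, + strand: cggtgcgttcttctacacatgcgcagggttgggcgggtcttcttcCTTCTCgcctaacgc
RPL35A, chr3:197950145-197950204, + strand: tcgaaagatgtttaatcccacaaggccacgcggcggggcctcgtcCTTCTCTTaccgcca
RPL36, chr19:5690250-5690309, + strand: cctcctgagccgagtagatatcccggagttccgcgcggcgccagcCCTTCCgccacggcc
RPS10, chr6:34426055-34426114, - strand: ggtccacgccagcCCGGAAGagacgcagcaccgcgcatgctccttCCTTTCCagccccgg

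RPS27L is the 1 sequence among these with no pyrimidine run at its start. For a gene with several starts the one with the longest run is shown, so the set leans towards such starts. Large-subunit genes without the run, such as RPL3, are not among those shown. RefSeq start windows of 250 bases before to 50 after the start were given for 72 of the 91 genes, with 89 windows in all, because a gene can have several starts. A start of C followed by at least 4 pyrimidines was found in 49 of these 89 windows (55.1%), against 4.07% of all 35116 windows in the RefSeq table. By gene, 49 of 72 members (68.1%) had such a start, against 6.32% of 15318 protein-coding genes. Of the 23 members without it, 6 were paralogues, among them RPS27L, RPL26L1, RPL36AL and RPL7L1.

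Other motifs were counted on both strands of the same windows. The ETS core CCGGAAG stood in 31.5% of member windows and 10.3% of all windows, and ATGGCG, the core of the YY1 site, in 34.8% against 10.7%. The TATA box TATAAA stood in 8.99% of member windows and 11.5% of all windows. The SP1 core GGGCGG was found in 52.8% against 44.95%, and CCAAT in 33.7% against 34.6%. Counted by gene in place of window, 56.9% of members had the SP1 core against 65.1% of protein-coding genes, so the order of this motif turned with the unit counted. By gene the ETS core stood in 33.3% against 16.7%, the YY1 core in 40.3% against 17.2%, TATAAA in 11.1% against 12.4% and CCAAT in 34.7% against 42.5%. A match describes the letters in the window and was not tested as a bound site. In H3K27ac, the subject of the next paragraphs, the 48 members that had the pyrimidine start and a peak in every list had a median mean percentile of 95.2, and the 21 without the start had 95.6. Their median mean peak widths were 3364 bp and 2835 bp.

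H3K27ac marked nearly every ribosomal protein promoter in every condition. Of the 91 genes, 86 had a promoter peak in all 10 lists, and 60.7% to 62.5% of all protein-coding genes had one per list. The 5 exceptions were all paralogues. RPL10L, a testis paralogue of RPL10, RPL39L, and the Y-linked paralogues RPS4Y1 and RPS4Y2 had a peak in 0 of 10 lists. RPL3L, the paralogue of RPL3 known from striated muscle, had a peak in WT 1 h replicate 2 alone, 353 bp wide and at the 28.9th percentile of that list. No peak means only that the authors' caller reported none there.

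Peak strength was compared by rank, since the −log10 p of a peak depends on its library. The percentile of a promoter is the share of peaks in the same list that have a lower −log10 p than its strongest peak. The members' median percentile was 95.2 and 95.0 in the WT 0 h lists, 94.6 and 96.9 at WT 1 h, and 96.8 and 96.2 at WT 10 h. In the RAD21 line it was 93.4 and 94.7 at 0 h and 95.7 and 94.9 at 1 h. The medians of all protein-coding genes with a peak lay between 80.8 and 87.2. The 78 mitochondrial ribosomal protein genes, which encode a separate ribosome, had medians between 84.4 and 90.8, and the 17 other 5′ TOP genes, such as EEF1A1 and TPT1, had medians between 94.3 and 97.9. These levels are descriptions, and no test was made of the difference between gene lists.

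The range among the members was narrow at the top and wider at the bottom. RPS19, a small-subunit protein often mutated in Diamond-Blackfan anaemia, had the highest mean percentile over the 10 lists, 99.7. RPL19 and RPL13A, both of the large subunit, followed at 98.7 each. The lowest mean, 79.7, belonged to RPL36A and to the readthrough gene RPL36A-HNRNPH2, which share their promoter peak. RPS24, of the small subunit, averaged 81.8. Its percentile ran from 70.0 in WT 0 h replicate 2 to 92.0 in WT 1 h replicate 2.

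Ribosomal protein promoters carried broader H3K27ac peaks than the median protein-coding gene. The median width of the strongest promoter peak was 1692 bp and 1746 bp in the WT 0 h lists and 1753 bp in WT 1 h replicate 1, where the median of all protein-coding genes was 1324 to 1367 bp. It was 3586 bp in WT 1 h replicate 2 and 3897 bp and 4218 bp at WT 10 h, against 2168 to 2178 bp over all protein-coding genes. In the RAD21 line it was 2989 bp and 3044 bp at 0 h and 4478 bp and 4919 bp at 1 h, against 1963 to 2406 bp. The other 5′ TOP genes had medians of 1240 to 1494 bp in the lists of the first form, below the members. In the lists of the second form their medians were 3112 to 5823 bp, above the members in every list. The lists of the first form were all narrower than the lists of the second form, also within WT 1 h, where replicate 2 exceeded replicate 1 at 86 of 86 members with a median ratio of 2.10. For all protein-coding genes that ratio was 1.52.

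**Figure D1:**
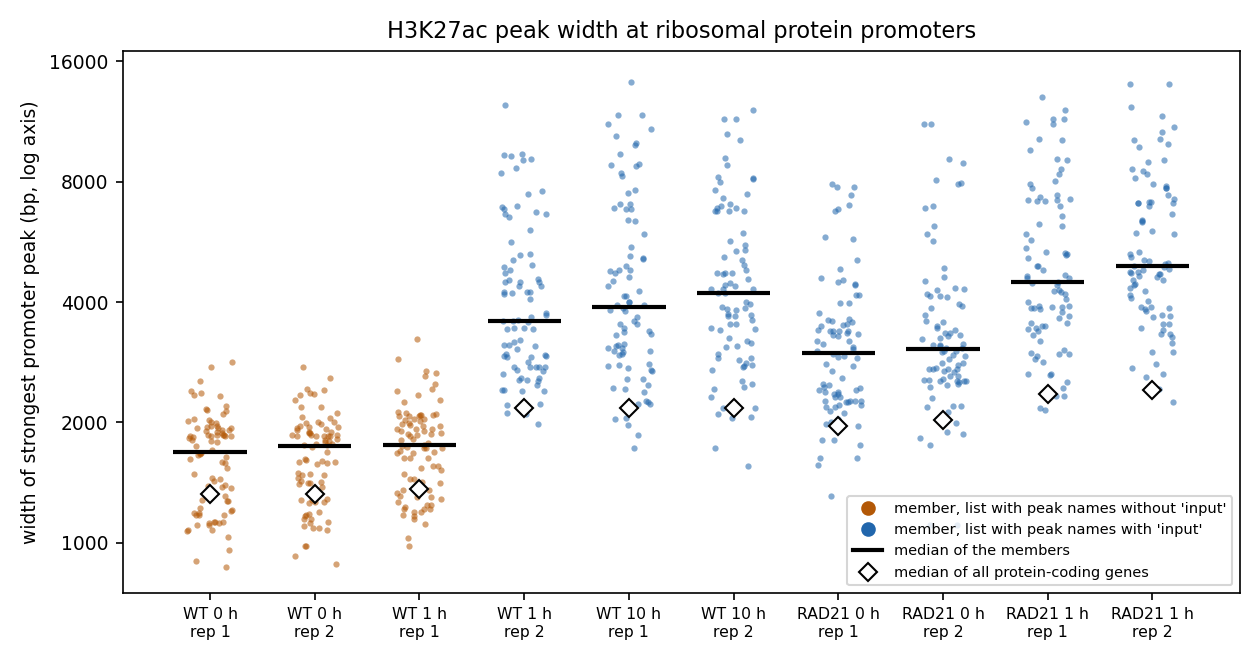
Width of the strongest H3K27ac promoter peak (bp, logarithmic axis) at each of the 86 ribosomal protein genes with a peak in all 10 lists, by list; points are genes, bars the median of all members with a peak and diamonds the median of all protein-coding genes with a peak, and colour gives the form of the peak names. The members' median lies above the diamond in every list and is highest in the RAD21 1 h lists, at 4478 bp and 4919 bp.

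The members with the widest mean peak were RPL13A at 7722 bp and RPL23A at 7448 bp, both of the large subunit. The narrowest were RPS4X at 1730 bp, RPL6 at 1734 bp and RPL36A with RPL36A-HNRNPH2 at 1830 bp. The 30 of 86 members that host small nucleolar RNAs, which guide the modification of ribosomal RNA, in their gene had a median mean width of 4329 bp, and the 56 others had 3023 bp. Across the members with a peak, the Spearman correlation of percentile and width went with the form of the list. It was −0.265 to −0.178 in the 3 lists of the first form and 0.365 to 0.515 in the 7 lists of the second, WT 1 h replicates 1 and 2 standing at −0.265 and 0.515. Genes of 1 list share its library, so these correlations only describe the lists.

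Within the RAD21 line, where both groups have the same form of list, 1 h of Nutlin-3a came with wider peaks at nearly every ribosomal protein promoter. Both RAD21 1 h lists exceeded both 0 h lists at 81 of 86 members, and the median width difference was 0.59 log2 units. The same held for 70.6% of 11677 protein-coding genes, with a median of 0.25 log2 units, a ratio of 1.19. Over all peaks of a list, the median width was 788 bp and 785 bp at RAD21 0 h and 1110 bp and 1169 bp at 1 h. The lists covered 49.1 and 53.2 Mb at 0 h and 62.6 and 64.1 Mb at 1 h, so the lists as a whole were broader. Relative to the median protein-coding gene of each list, 54 members were wider in both 1 h lists and 5 narrower, beside 24.7% and 27.8% of all genes, and the members' median ratio was 1.25.

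In WT the comparisons within a form gave small differences. WT 1 h replicate 1 against WT 0 h gave a median ratio of 1.05, with 53 of 86 members above and 15 below both 0 h lists, against 40.8% and 35.3% of all protein-coding genes. WT 10 h against WT 1 h replicate 2 gave a ratio of 1.04, with 42 of 86 members wider and 25 narrower in both 10 h lists, against 36.8% and 40.7% of all genes. Across lines and within the second form, RAD21 1 h over WT 1 h replicate 2 gave 1.24, with 65 members wider in both RAD21 lists against 62.6%, and WT 10 h over RAD21 0 h gave 1.27, with 61 members wider in both against 45.4%. The ratios across forms were larger, at 2.37 for WT 10 h over WT 0 h and 1.93 for RAD21 0 h over WT 0 h. Most protein-coding genes also widened there. Both WT 10 h lists exceeded both WT 0 h lists at 88.6% of 11677 such genes, and both RAD21 0 h lists did so at 85.6%.

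The same question was put to a limma fit of all 10 lists over 18757 merged regions called in every list, with the log2 of the covered width centred on each list's median and the adjusted p of the Benjamini-Hochberg method. The 86 members lay in 82 of these regions. At WT 10 h against 0 h, 57 member regions were wider and 0 narrower at an adjusted p under 0.05, beside 16.1% wider and 7.71% narrower over all regions, and the members' median difference was 0.79 log2 units. With a term for the form of the list, 0 member regions passed (22 at an unadjusted p under 0.05) and the median was 0.18. This term is set by the WT 1 h pair alone, so it cannot separate form from time here. The count without WT 0 h replicate 1 was 4, without WT 0 h replicate 2 it was 5, and it was 3 and 4 without WT 10 h replicates 1 and 2. The wider regions held 34 of 46 large-subunit genes, 22 of 31 small-subunit genes and 1 of 5 paralogues.

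The largest such difference was at RPL36, a large-subunit gene in a region at chr19:5689088-5698057 of hg19. Its strongest peak was 1991 bp and 1379 bp wide in the WT 0 h lists and 2101 bp and 4554 bp at WT 1 h. It was 8785 bp and 5195 bp at WT 10 h and 5345 bp and 6635 bp at RAD21 1 h. In these lists its summit lay 260 to 309 bp downstream of the start. At RAD21 0 h the strongest promoter peak was another one, 1983 bp and 1898 bp wide. Its summits stood at −9460 bp and −9466 bp from the start, outside this region, so these 2 widths are not comparable with the others. The WT 10 h lists were above both WT 0 h lists, and within the second form they were above WT 1 h replicate 2 as well. The centred width of the region differed by 1.65 ± 0.20 log2 units (SE, n = 2 per group) at WT 10 h against 0 h (limma, adjusted p = 0.00463), and by 1.06 with an adjusted p of 0.0638 under the term for form. RPS10, a small-subunit gene that shares its region with the readthrough gene RPS10-NUDT3, differed by 1.37 ± 0.17 log2 units (adjusted p = 0.00474).

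RAD21 0 h against WT 0 h, which also differ in form, gave 34 wider and 0 narrower member regions beside 12% and 7.82% of all regions, and 0 wider and 1 narrower with the term for form. The count was 5 and 4 without RAD21 0 h replicates 1 and 2, 2 and 3 without WT 0 h replicates 1 and 2, and 57 without either WT 1 h list. RAD21 1 h against 0 h gave 1 wider region, RPL37, and 0 narrower ones, beside 2.42% wider and 0.496% narrower over all regions and 2.92% in either direction. RPL37, of the large subunit, was 2495 bp and 2556 bp wide at RAD21 0 h and 4412 bp and 5004 bp at RAD21 1 h, so that the groups did not overlap. Its centred width differed by 0.64 ± 0.11 log2 units (limma, adjusted p = 0.0208), and each of the 4 fits that left out a RAD21 list ended this call, with adjusted p from 0.0736 to 0.154.

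The spread in these fits includes the pair of WT 1 h lists, which differ in form. In a fit of the 7 lists of the second form alone, chosen after seeing the data, 11 member regions were wider and 2 narrower at RAD21 1 h against 0 h, beside 5.39% and 2.54% of all 20357 regions. The wider regions were those of RPL4, RPL11, RPL23, RPL24, RPL26, RPL37, RPS3, RPS3A, RPS9, RPS19 and RPS25, and the narrower ones those of RPL8 and RPS18. WT 1 h against 0 h gave 0 calls in the fit of all lists (13 of 82 at an unadjusted p under 0.05), beside 0.331% wider and 0.112% narrower over all regions, 0.443% in all. RAD21 against WT at 1 h gave 1 wider region, RPS3A, at 0.80 ± 0.12 log2 units (adjusted p = 0.0307), and 0 narrower ones, beside 0.453% and 0.325% of all regions, 0.778% in either direction. WT 10 h against 1 h gave 7 wider and 0 narrower regions beside 2.43% and 1.88%, 4.3% in either direction. In the fit of the 7 lists these counts were 0 (24 at an unadjusted p under 0.05) and 1. The difference of the 1 h changes between the lines gave 0 width calls (8 of 82 at an unadjusted p under 0.05), beside 0.331% and 0.213%.

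Most of the added width lay downstream of the start, over the transcribed gene. In the 3 lists of the first form the members' peaks reached a median of 682 to 716 bp upstream and 1046 to 1088 bp downstream of the start. The downstream reach was 2264 bp in WT 1 h replicate 2, 2407 bp and 2509 bp at WT 10 h, 1704 bp and 1851 bp at RAD21 0 h and 2876 bp and 3622 bp at RAD21 1 h. The upstream reach in these 7 lists stayed between 1111 and 1316 bp. Over all protein-coding genes the downstream reach lay between 798 and 1314 bp.

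From RAD21 0 h to 1 h the downstream end moved by a median of 1228 bp at the 86 members and by 199 bp over protein-coding genes. The other 5′ TOP genes moved by a median of 1448 bp. Both 1 h lists reached farther downstream than both 0 h lists at 75 members, against 60.8% of protein-coding genes. The upstream end moved by 166 bp at the members and by 144 bp over protein-coding genes, with 59 members higher in both 1 h lists against 56.7%. The median position of the highest point stayed near the start, at 199 to 254 bp downstream in every list, against 166 to 182 bp over all genes. Single members differed. Taken over the lists, the median summit lay upstream at 7 of the 30 snoRNA hosts and 11 of the 56 others. Some summits crossed the start, as at RPLP2, with −258 bp and −243 bp at RAD21 0 h and 207 bp and 191 bp at 1 h.

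**Figure D2:**
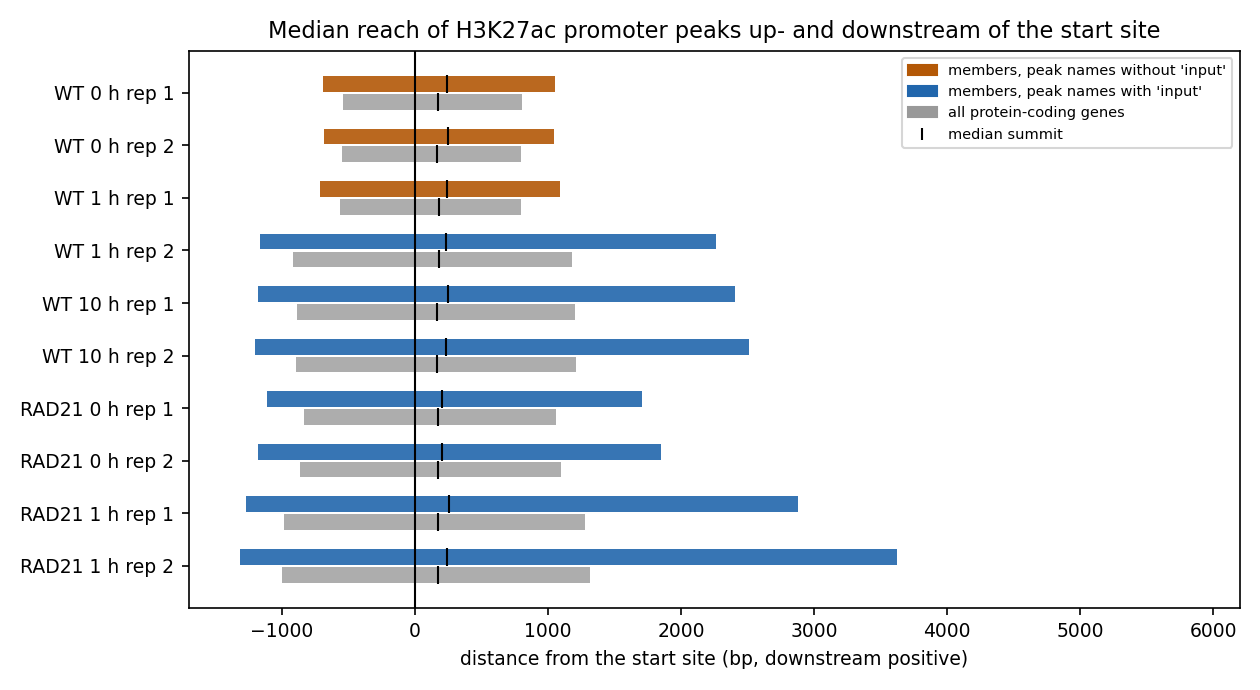
Median distance (bp) that H3K27ac promoter peaks reached upstream (negative) and downstream (positive) of the start site, by list, for ribosomal protein genes (coloured by the form of the peak names) and all protein-coding genes (grey); ticks mark the median summit. The members' bars lengthen mainly to the right, to 3622 bp in RAD21 1 h replicate 2, while the median summit stays within 254 bp of the start.

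Ribosomal protein genes are short, with a median length of 5548 bp among the members with a peak, where protein-coding genes with a peak had medians from 32987 to 33899 bp. A member's peak therefore covered much of the gene. In the WT 0 h lists and WT 1 h replicate 1 the median share of the gene under the peak was 19.8% to 20.4%, and 0 of 86 genes lay wholly inside their peak. At RAD21 0 h 12 genes lay wholly inside in each list (14.0%), and at RAD21 1 h 26 (30.2%) and 29 (33.7%) did, with a median share of 52.6% and 65.2% of the gene. The corresponding number was 21 of 87 in WT 1 h replicate 2 and 21 and 23 of 86 at WT 10 h. Between 0.376% and 2.49% of all protein-coding genes lay wholly inside their peak.

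RPS19 and RPLP0 were among the longest extensions. RPLP0 encodes the base of the ribosomal stalk. Its peak was 1309 bp and 1285 bp wide at WT 0 h, 2277 bp and 9368 bp at WT 1 h, 10841 bp and 4718 bp at WT 10 h, 3482 bp and 4282 bp at RAD21 0 h and 9597 bp and 9744 bp at RAD21 1 h. The RAD21 1 h lists were both above the 0 h lists. The RPS19 peak was 1446 bp and 1403 bp at WT 0 h, 1556 bp and 3420 bp at WT 1 h, 14234 bp and 5381 bp at WT 10 h, 2690 bp and 3026 bp at RAD21 0 h and 12112 bp and 12295 bp at RAD21 1 h. The covered width of their merged regions at RAD21 1 h against 0 h did not pass the test (limma, adjusted p = 0.611 for RPS19 and 0.894 for RPLP0). A merged region counts all the peaks that lie in it in any list, so its covered width is another measure than the width of the promoter peak.

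Changes in rank were fitted over the same 18757 regions, on rank scores in which the ranks of a list were mapped to a standard normal distribution. The paralogue RPS27L was the member with the clearest rise in WT at 10 h. Its percentile was 86.3 and 85.4 in the WT 0 h lists, 86.1 and 85.2 at WT 1 h, and 97.7 and 97.1 at WT 10 h. In the RAD21 line it was 86.1 and 85.3 at 0 h and 91.2 and 94.0 at 1 h. The WT 10 h lists stood above all other lists, also above WT 1 h replicate 2 and the RAD21 lists that share their form.

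The RPS27L score rose by 0.83 ± 0.13 at WT 10 h against 0 h (SE, n = 2 per group; limma, adjusted p = 0.00173) and by 0.90 ± 0.13 against 1 h (adjusted p = 0.000305). These calls held when peaks were ranked by fold enrichment, with differences of 1.09 ± 0.22 (adjusted p = 0.0271) and 1.28 ± 0.22 (adjusted p = 0.0348). At RAD21 1 h against 0 h it rose by 0.54 ± 0.13 (adjusted p = 0.00795), and this call was lost when ranked by fold (adjusted p = 0.266), without RAD21 0 h replicate 2 (0.0722) and without RAD21 1 h replicate 2 (0.107). The 1 h changes of the 2 lines differed by 0.62 ± 0.18 (adjusted p = 0.0286), a call that 6 of the alternatives ended. The region of RPS27L lies at chr15:63448155-63450755 of hg19, and its width was not called in any comparison.

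**Figure D3:**
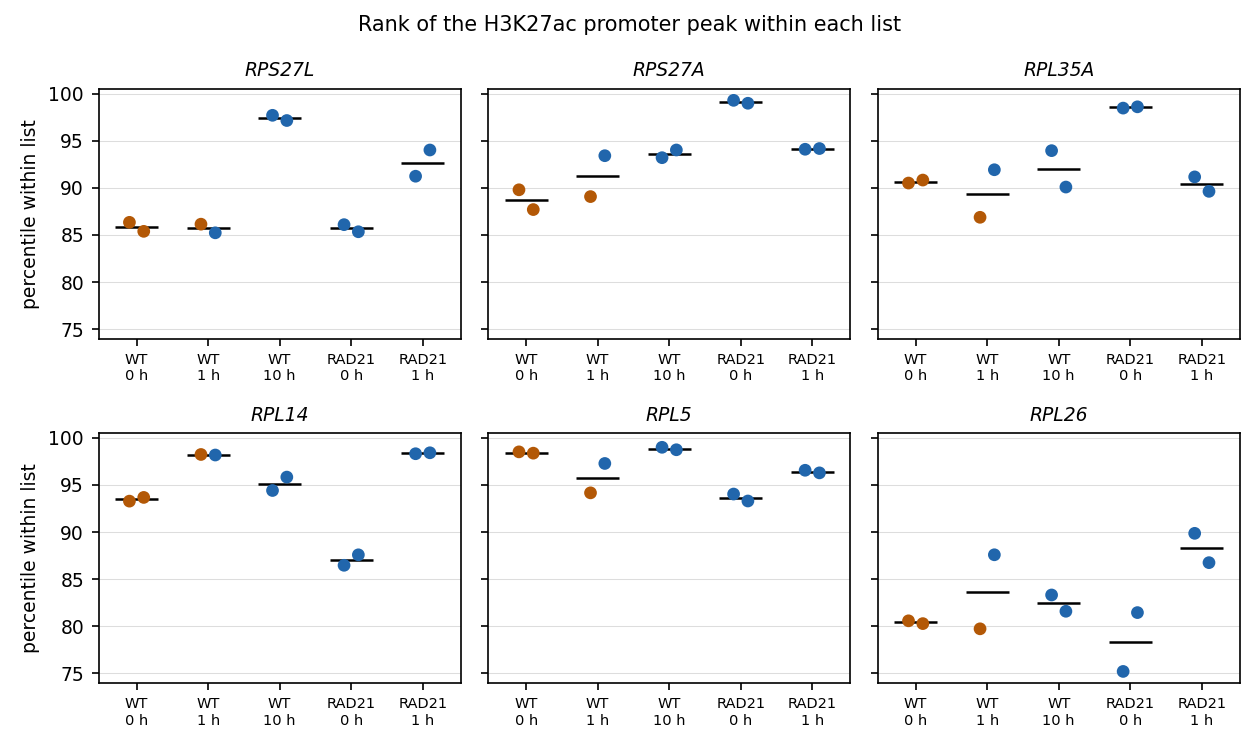
Percentile of the strongest H3K27ac promoter peak within its list for 6 ribosomal protein genes, by group; points are lists (colour as in the plot of widths), bars the mean of 2 lists. RPS27L stands at 97.7 and 97.1 at WT 10 h and between 85.2 and 94.0 elsewhere, RPS27A and RPL35A are highest at RAD21 0 h, and RPL14 is lowest there.

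In all 2 of 82 member regions rose in rank and 7 fell at WT 10 h against 0 h, beside 9.7% and 8.56% of all regions, with a median member difference of −0.08. Ranked by fold, 10 member regions rose and 4 fell beside 10.1% and 9.58%, with a median of 0.63, so the balance of directions depends on the measure that is ranked. RPL7L1, a paralogue of RPL7, rose by 0.41 ± 0.13 (adjusted p = 0.0479). RPS20, a small-subunit gene, fell by 0.70 with an SE of 0.13 (adjusted p = 0.00466), and its percentiles of 93.2 and 90.8 at WT 10 h lay below 97.1 and 95.9 at WT 0 h. RPS3, an HDM2-binding small-subunit protein, and RPL6 fell by 0.49 and 0.46 (adjusted p = 0.0201 and 0.0268). RPS27L was the 1 rise left without WT 0 h replicate 1 or 2 or WT 10 h replicate 1 or 2, with totals of 1, 2, 2 and 1 calls. Without either RAD21 1 h list 5 regions passed, and without either WT 1 h list 28.

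In the RAD21 line 24 member regions rose and 6 fell from 0 h to 1 h, beside 14.4% and 13.4% of all regions, with a median member difference of 0.17. The count fell to 16, 16, 18 and 14 without each RAD21 list in turn. Ranked by fold enrichment 0 regions passed (8 of 82 at an unadjusted p under 0.05), among 0 of all 18757. The median member difference ranked by fold was 0.20, so the calls were lost while the median stayed at least as large.

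RPL14, of the large subunit, rose most. Its percentile was 86.5 and 87.6 at RAD21 0 h and 98.3 and 98.4 at RAD21 1 h, where WT had 93.3 and 93.7 at 0 h, 98.2 and 98.2 at 1 h and 94.4 and 95.8 at 10 h. Its score rose by 1.25 ± 0.12 in the RAD21 line (limma, adjusted p = 2.52e-05) and by 0.62 ± 0.12 in WT (adjusted p = 0.00262), and ranked by fold the RAD21 change had an adjusted p of 0.0893. RPS19 was at 99.2 in both RAD21 0 h lists and at 100.0 in both 1 h lists, a rise in score of 1.24 ± 0.19 (adjusted p = 0.000433). RPSA, the small-subunit protein also known as the laminin receptor, rose by 0.77 ± 0.14 (adjusted p = 0.00154).

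RPS27A and RPL35A went the other way. RPS27A, which encodes ubiquitin fused to a small-subunit protein, was at 99.3 and 99.0 at RAD21 0 h and at 94.1 and 94.2 at RAD21 1 h, and WT ranged from 87.7 to 94.0 over its 6 lists. The RAD21 0 h lists were above all others. In them the summit stood at −689 bp and −683 bp from the start, against −204 to 320 bp in the other lists. The RPS27A score fell by 0.91 with an SE of 0.12 from 0 h to 1 h (adjusted p = 0.000194). It was 1.22 ± 0.12 higher than WT at 0 h (adjusted p = 9.68e-06), which held when ranked by fold at 1.94 ± 0.38 (adjusted p = 0.0142). RPL35A, a Diamond-Blackfan anaemia gene of the large subunit, was at 98.5 and 98.6 at RAD21 0 h and at 91.2 and 89.6 at 1 h, with WT between 86.9 and 93.9. Its score fell by 1.00 with an SE of 0.13 (adjusted p = 0.000146) and was 0.86 ± 0.13 above WT at 0 h (adjusted p = 0.000227). At RAD21 0 h its summit stood at −532 bp and −506 bp from the start, against −161 to 405 bp in the other lists. The part of the summit position in the rank changes of RPS27A and RPL35A was not tested. RPL10 fell by 0.61 with an SE of 0.13 (adjusted p = 0.00376).

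At 0 h the RAD21 line had lower ranks than WT at many ribosomal protein promoters. In total 33 of 82 member regions were lower and 3 higher, beside 20.7% and 16.8% of all regions, and the median member difference was −0.29. The form of the list differs between these groups. With a term for form, which the WT 1 h pair alone sets, 42 regions were lower and 2 higher. Without RAD21 0 h replicate 1 the calls numbered 19, and without WT 0 h replicates 1 and 2 they numbered 20 and 23. Ranked by fold, 3 regions were lower and 6 higher, and the median was 0.41, so the direction of the median depends on the measure that is ranked.

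RPL34, RPL26L1 and RPL5 were lowest by p in that comparison. RPL34, of the large subunit, differed by −0.91 ± 0.12 (adjusted p = 0.000105) and RPL26L1, a paralogue of RPL26, by −0.84 ± 0.13 (adjusted p = 0.000304). RPL5, which binds the 5S ribosomal RNA and HDM2, was at 98.5 and 98.4 at WT 0 h, 94.2 and 97.3 at WT 1 h, 99.0 and 98.7 at WT 10 h, 94.0 and 93.3 at RAD21 0 h and 96.6 and 96.3 at RAD21 1 h. The RAD21 lists lay below all WT 0 h and 10 h lists. Its score differed by −0.83 ± 0.13 between the lines at 0 h (adjusted p = 0.000339), fell by 0.49 with an SE of 0.13 in WT at 1 h against 0 h (adjusted p = 0.0149) and rose by 0.47 ± 0.13 from 1 h to 10 h (adjusted p = 0.0152).

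The remaining rank comparisons gave calls in both directions. WT 1 h against 0 h gave 11 rises and 10 falls beside 14.3% and 14.8% of all regions, with RPS25 (0.80 ± 0.14, adjusted p = 0.00159), RPS24 and RPL22 foremost among the rises and RPS4X, RPL34 and RPL26L1 among the falls. WT 10 h against 1 h gave 8 rises and 19 falls beside 15.8% and 16.5%, or 32.4% in either direction. There RPS20 fell by 0.86, RPS25 by 0.89 and RPL14 by 0.66, while RPL10 rose by 0.67 ± 0.13 and RPS28 by 0.65 ± 0.17. RAD21 against WT at 1 h gave 2 higher regions, those of RPLP2 and RPS2, and 11 lower ones, with RPL6, RPL24 and RPL29 foremost, beside 5.68% and 6.15%. Ranked by fold these 3 comparisons gave 0 calls (4 of 82 at an unadjusted p under 0.05), 1 call (RPS27L) and 0 calls (18 of 82). With each list left out in turn their totals ran from 4 to 37, from 9 to 44 and from 0 to 38. The 1 h change itself differed between the lines at 18 member regions, 14 with a higher and 4 with a lower change in the RAD21 line, beside 11.7% and 11% of all regions, and at 0 regions when ranked by fold (5 of 82 at an unadjusted p under 0.05). Leaving out WT 1 h replicate 1 gave 33 such regions and replicate 2 gave 38, and leaving out any 1 of the WT 0 h and RAD21 lists gave 5 to 8.

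Among the 10 HDM2-binding ribosomal proteins, RPL5, RPL11, RPL23, RPL26, RPS3, RPS7, RPS14, RPS27, RPS27L and RPS27A, the changes went in both directions. From RAD21 0 h to 1 h 2 rose, RPL26 and RPS27L, and RPS27A fell, beside 14.4% and 13.4% of all regions, with a median of 0.17. At WT 10 h against 0 h RPS27L rose and RPS3 fell, beside 9.7% and 8.56% of all regions. The median of the 10 was −0.14 where all protein-coding genes had −0.09. The RAD21 line was lower than WT at 0 h for 5 of them and higher for RPS27A, beside 20.7% and 16.8% of all regions. Their median there was −0.42 beside −0.09 for all protein-coding genes. RPL26 had percentiles of 80.6 and 80.3 at WT 0 h, 79.7 and 87.6 at WT 1 h, 83.3 and 81.6 at WT 10 h, 75.2 and 81.5 at RAD21 0 h and 89.9 and 86.8 at RAD21 1 h. Its summit stood at −633 bp and −724 bp from the start at RAD21 0 h and at 342 bp and 315 bp at RAD21 1 h. In WT its summit stood at −698 bp in 1 h replicate 2 and at 308 to 378 bp in the other lists. Its score rose by 0.61 ± 0.13 in the RAD21 line (adjusted p = 0.00363), with adjusted p of 0.0525 without RAD21 0 h replicate 1 and 0.0526 without RAD21 1 h replicate 1.

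RPL11 binds the 5S ribosomal RNA and HDM2 together with RPL5. Its percentile was 94.2 and 94.0 at WT 0 h, 98.5 and 94.6 at WT 1 h, 95.6 and 90.7 at WT 10 h, 89.1 and 91.8 at RAD21 0 h and 91.8 and 92.8 at RAD21 1 h. The RAD21 lists were below both WT 0 h lists, and the WT 10 h lists lay on either side of them. The 1 rank call of RPL11 was a fall of 0.60 with an SE of 0.21 from WT 1 h to 10 h (adjusted p = 0.0402). RPL23, another HDM2-binding protein of the large subunit, had 0 rank calls, and its percentile ran from 83.4 to 95.2 over the lists. Of the 12 Diamond-Blackfan anaemia genes 3 rose and 1, RPL35A, fell at RAD21 1 h against 0 h, where 14.4% of all regions rose and 13.4% fell. At WT 10 h against 0 h 0 of the 12 changed in rank, beside 18.3% of all regions in either direction.

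In H3K4me1 the ribosomal protein starts stood in a gap between flanking peaks. The start base itself lay inside an H3K4me1 peak for 14 and 7 of the 91 genes in the 0 h lists (15.4% and 7.69%), 12 and 12 at 1 h (13.2% in each), and 5 and 9 at 10 h (5.49% and 9.89%). Of all 20176 protein-coding genes 33.5% to 44.98% had their start inside a peak. The shares were 30.8% to 59.0% for mitochondrial ribosomal protein genes, 18.2% to 36.4% for 22 ribosome assembly genes and 0% to 17.6% for the 17 other 5′ TOP genes. The 0 h counts overlapped with those at 1 h and at 10 h, and both 10 h counts lay below both 1 h counts. Over all protein-coding genes both 10 h shares, 33.5% and 38.4%, also lay below both 1 h shares, 44.6% and 44.98%. For mitochondrial ribosomal protein genes they were 30.8% and 42.3% against 50.0% and 59.0%. The lower 10 h values were thus not particular to the members.

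**Figure D4:**
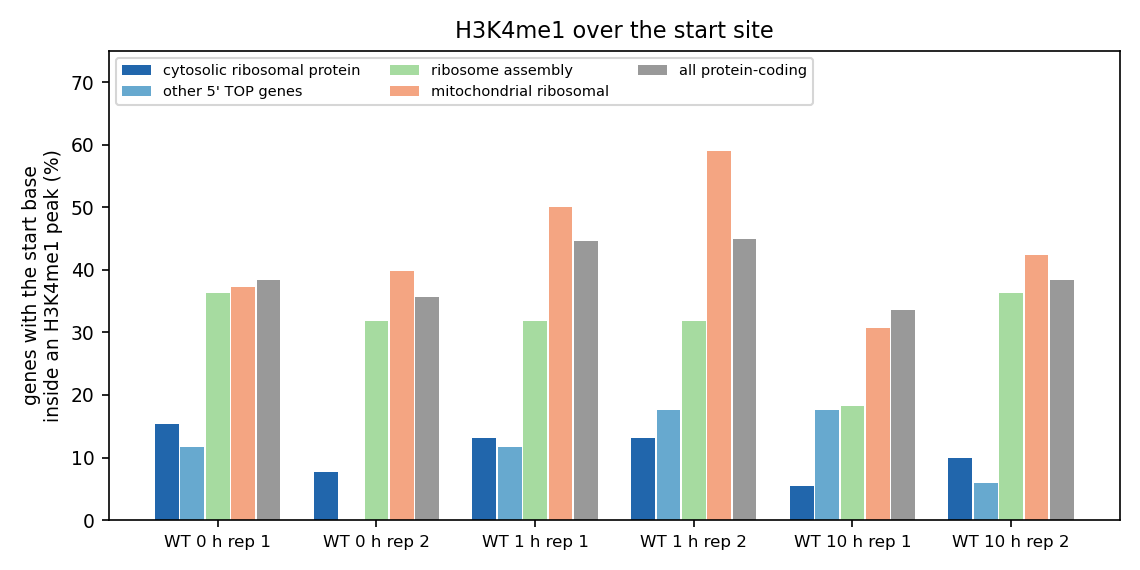
Percentage of genes whose start base lies inside an H3K4me1 peak, for the 6 WT lists and 5 gene lists; bars start at 0 and each bar is 1 list. Ribosomal protein genes lie between 5.49% and 15.4% and all protein-coding genes between 33.5% and 44.98%.

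Peaks on both sides of the start within 5000 bp were found at 73 to 82 of the 91 genes (80.2% to 90.1%), against 22.6% to 32.8% of all protein-coding genes. The shares were 82.4% to 100% for the other 5′ TOP genes and 59.1% to 77.3% for ribosome assembly genes. For mitochondrial ribosomal protein genes they were 41.0% to 69.2%. The median gap between these flanking peaks was 1365 to 1498 bp at the members and 1356 to 1474 bp over all genes with such a gap. RPS27L was flanked in 6 of 6 lists with a median gap of 1294 bp. RPL6, RPL29, RPS27 and the paralogue RPL26L1 were the 4 members whose start lay inside a peak in 6 of 6 lists.

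An H3K4me1 peak overlapped the promoter of 76 to 81 members per list, with median widths of 1315 to 2289 bp against 2252 to 3203 bp over protein-coding genes. RPL39, RPLP2, RPS21, RPS25, RPL10L, RPL39L, RPS4Y1 and RPS4Y2 had 0 such peaks in 6 lists, the last 4 of which also lacked H3K27ac. RPLP2, a stalk protein, and RPS25 had H3K27ac in all 10 lists.

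Few H3K4me1 changes passed the test in this design of 2 lists per time. Over 81 member regions among 60476 regions called in all 6 lists, WT 10 h against 1 h gave 4 rises and 0 falls in rank, beside 1.92% and 1.13% of all regions, 3.05% in either direction. RPL22 rose by 1.18 ± 0.22 (adjusted p = 0.0108), RPL13A by 1.24 ± 0.24 (adjusted p = 0.0121) and RPS19 by 0.86 ± 0.19 (adjusted p = 0.0281). Ranked by fold 0 regions passed (13 of 81 at an unadjusted p under 0.05). In limma, 0 regions passed in rank at 1 h against 0 h (16 of 81 at an unadjusted p under 0.05) and at 10 h against 0 h (8 of 81), beside 0.595% and 0.638% of all regions. By direction, 0.291% of all regions rose and 0.304% fell at 1 h, while 0.615% rose and 0.0231% fell at 10 h. The width fit gave 0 calls in each of the 3 comparisons (9, 6 and 3 of 81 at an unadjusted p under 0.05 for 1 h against 0 h, 10 h against 1 h and 10 h against 0 h), beside 0% of all regions.

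Genes of related function give the scale of these values. Over all regions 16.1% were wider and 7.71% narrower at WT 10 h against 0 h, a comparison across the forms of list. In rank at RAD21 1 h against 0 h, 14.4% of all regions rose and 13.4% fell. The other 5′ TOP genes, most of which encode translation factors, widened in 12 of 17 cases at WT 10 h against 0 h, with a median of 1.06 log2 units, and in same-form lists from RAD21 0 h to 1 h their median difference was 0.58 log2 units where the members had 0.59. Ribosome assembly genes, such as NCL and FBL, widened in 9 of 22 cases with a median of 0.47 at WT 10 h and had a ratio of 1.23 in the RAD21 line. Mitochondrial ribosomal protein genes widened in 24 of 77 regions with a median of 0.12, and their ratio in the RAD21 line was 1.24. In H3K27ac rank at RAD21 1 h against 0 h 7 of 17 other 5′ TOP genes rose and 1 fell, 6 of 22 assembly genes rose and 5 fell, and 25 of 77 mitochondrial ribosomal regions rose and 4 fell. The difference between lists was not tested.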

How the data were processed

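ChIP-seq of H3K27ac and H3K4me1 was analysed from the authors' 16 peak lists. The study's methods name input as the control for peak calling. The peak names of 3 H3K27ac lists lack the word input, and whether these were called in the same way is not given. Values of the 10 input libraries were not used here. By the study's methods and the submitters' processing notes, reads were trimmed with Trim Galore 0.6.6, aligned to GRCh37.p13 (hg19) with Bowtie2 2.3.2, handled with SAMtools and deepTools 3.2.1, and peaks were called per replicate with MACS2 2.2.7.1, narrow for H3K27ac and broad for H3K4me1. In the deposited lists the authors give each peak's fold enrichment over the control, a ratio, with −log10 of its p-value and q-value. The lowest −log10 q was about 1.30 in H3K27ac and 1.01 in H3K4me1 lists. Depth is unknown, because the lists hold no read counts.

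Promoters (1000 bp upstream to 200 bp downstream of the annotated start) were overlapped with peaks by at least 1 bp, and the strongest peak by −log10 p was kept. Overlapping peaks from the lists of each mark were joined into regions, and regions called in every list were tested with limma 3.58.1 (R 4.3.3, trended variance, 5 or 3 groups of 2 lists) on rank scores and on log2 covered width minus the list median. P-values were adjusted over all regions by the Benjamini-Hochberg method. Positions in this account are of hg19, except RefSeq sequences. On simulated data with 200 changed regions, a change of 1 unit was recovered in 82% to 88.5% of cases for H3K27ac rank, 56.5% to 68% for H3K27ac width, 43% to 50.5% for H3K4me1 rank and 8.5% to 14% for H3K4me1 width.

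Members, gene lists and tests were chosen with earlier results of these data known. Genes were named by rule: RPL5, RPL11, RPL23, RPL26, RPS27L, RPS27A, RPS19, RPLP0 and RPSA whatever their values; in each comparison and direction at most the 3 members with the smallest p that passed; the 3 highest and lowest by mean percentile and by mean width; and every member lacking peaks. Some members that the rule picks are not reported here. The members wider or narrower in the fit of 7 lists, those with the start inside H3K4me1 in every list and the pyrimidine-free paralogues were named after their values were seen. Alternatives changed the ranked measure, the peak threshold, the filter, the feature, the overlap, the width measure, the centring, a replicate block, a term for the form of peak names, the promoter window and the start site, and left out each list in turn.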

Additional observations from a re-analysis of the deposited data

Results flagged for a closer look

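The change in H3K27ac rank after 1 h of Nutlin-3a differed between the lines, by a test of that difference in limma, at 14 ribosomal protein regions where it was higher in the RAD21 line than in WT and at 4 where it was lower, beside 11.7% and 11% of all regions. RPL26L1 (difference of rank scores 0.92, adjusted p = 0.00334), RPL5 (0.84, adjusted p = 0.00612) and RPL27A (1.05, adjusted p = 0.0124) had the smallest p among the first. RPS27A (−1.05, adjusted p = 0.0011), RPL35A (−0.88, adjusted p = 0.00418) and RPL7L1 (−0.78, adjusted p = 0.0106) had the smallest p among the second. RPS27A stood at the 99.3rd and 99.0th percentile at RAD21 0 h and at 94.1 and 94.2 at 1 h, while WT went from 89.8 and 87.7 to 89.1 and 93.4. At RAD21 0 h the summits of RPS27A (−689 bp and −683 bp) and RPL35A (−532 bp and −506 bp) lay farther upstream than in any other list. RPL27A went from 97.0 and 96.4 to 99.4 and 99.4 in the RAD21 line, and in WT from 98.8 and 99.1 to 95.9 and 99.2. The 2 WT 1 h lists differ in the form of their peak names, and the part of that form in these differences was not tested. With the term for form, which rests on this pair alone, 32 regions were higher and 6 lower. Ranked by fold enrichment 0 of 82 regions passed, with 5 at an unadjusted p under 0.05, so none of these differences held under that ranking.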

How the results depend on the processing

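The counts of changed ribosomal protein regions depended on the processing more than the levels did. Ranked by fold enrichment, the H3K27ac rank calls numbered 0 for RAD21 1 h over 0 h, 9 for the RAD21 line over WT at 0 h, 0 at 1 h, 14 for WT 10 h over 0 h (10 higher and 4 lower, where the rank by p gave 2 and 7), 1 over 1 h, 0 for WT 1 h over 0 h and 0 for the difference of the 1 h changes, and the H3K4me1 calls for 10 h over 1 h numbered 0. With the term for the form of peak names, rank calls numbered 26 for the RAD21 line over WT at 1 h, 43 for WT 10 h over 1 h, 34 for WT 1 h over 0 h and 38 for the difference of changes, and width calls 19 for RAD21 1 h over 0 h, 1 for RAD21 over WT at 0 h, 0 for WT 10 h over 0 h, 4 over 1 h and 3 for the difference of changes. In the added fit of 7 lists, 22 rank calls were made for RAD21 over WT at 1 h, and 13, 0 and 1 width calls for RAD21 1 h over 0 h, RAD21 over WT at 1 h and WT 10 h over 1 h. By gene promoter in place of region, the H3K27ac rank count for WT 10 h over 0 h was 5, and the width counts were 2 (RAD21 1 h over 0 h), 6 and 2 (RAD21 over WT at 0 h and 1 h), 36 and 4 (WT 10 h over 0 h and 1 h), 1 (WT 1 h over 0 h) and 2 (difference of changes). For H3K4me1 that feature gave 0 rank calls and 4 width calls at 10 h over 1 h and 3 width calls at 1 h over 0 h. By the strongest peak the width counts in the same order were 2, 8, 2, 28, 3, 1 and 2, and for H3K4me1 2 and 1. With −log10 q of at least 5 they were 2, 21 and 2 in the RAD21 comparisons, 3 for WT 10 h over 1 h, 1 for WT 1 h over 0 h and 1 for the difference. Without centring, RAD21 1 h over 0 h gave 0, RAD21 over WT 15 and 0, and WT 10 h over 1 h 0. With regions called in at least 0.5 of the lists, RAD21 over WT at 1 h gave 3 width calls and H3K4me1 1 h over 0 h gave 1 rank call.

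Replicate numbers did not pair the lists, with correlations of same-numbered deviations from −0.05 to 0.045. The replicate block changed 1 of these counts, the width of the RAD21 line over WT at 1 h, from 1 to 0, and left 19 within 1.5 times. It ended 2 of 74 calls of single members. An overlap of at least 200 bp changed 0 of 20. With each list left out in turn, H3K27ac rank counts ran from 14 to 42 (RAD21 1 h over 0 h), 19 to 49 and 0 to 38 (RAD21 over WT at 0 h and 1 h), 1 to 28, 9 to 44 and 4 to 37 (WT 10 h over 0 h, 10 h over 1 h, 1 h over 0 h) and 5 to 38 (difference). Width counts ran from 0 to 19, 2 to 57, 0 to 64, 3 to 69, 0 to 64, 0 to 57 and 0 to 33 in that order, and H3K4me1 rank counts at 10 h over 1 h from 0 to 5, the other H3K4me1 counts staying at 0. In these fits the lone list of a group is assumed to vary like the other groups. The median H3K27ac percentile, averaged over lists, stayed between 95.2 and 95.6, the median width between 3045 and 3403 bp, members with a peak between 86.0 and 86.1, the summit between 231 and 237 bp, and for H3K4me1 the members with a peak between 77.8 and 78.8, their percentile between 73.6 and 74.5, their width between 1614 and 1809 bp and the members with the start inside a peak between 9.0 and 10.8.

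Ranked by fold the mean of the median H3K27ac percentile was 91.9. The members with an H3K4me1 peak averaged 73.2 with −log10 q of at least 5 and 60.7 with a promoter of 500 bp each side, and their median width was then 2163 bp. From the most upstream start the summit lay 276.6 bp downstream and 13.2 members had their start inside an H3K4me1 peak. Among 74 results of single members, 986 of 1291 alternative values held, 301 no longer passed and 4 turned sign, namely RPSA rank ranked by fold (0.058 for RAD21 over WT at 0 h, 0.097 for WT 10 h over 1 h), and width for RAD21 over WT at 0 h at RPL36 by gene promoter (−0.37) and at RPS19 with the term for form (−0.027). For RPL36 the strongest promoter peak at RAD21 0 h lay upstream, outside the region of the fit. The cause of these turns was not tested. Depth is unknown, and a smaller covered width in lists of the first form limits what any comparison across forms can show.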
